A study of Mus musculus with 18 samples.

Results

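The genes described here code for the ligands, receptors, Smad proteins, secreted antagonists and latency proteins of the TGF-beta, BMP and activin pathways. The pathway was chosen with earlier results of these data known. Its genes were then taken by symbol alone from the deposited gene tables, and 60 of the 35275 genes matched. In 43 of these genes the level reached 0.5 FPM in at least 3 libraries, and these 43 were tested among 13869 genes that passed the same filter. FPM is the unit of the deposited table, in which each library's gene reads are scaled by 1 factor and gene length is not corrected for. The remaining 17 genes were too low to test. Of the 43 tested genes, 32 passed the filter in every library and 11 passed in some libraries only, so that a gene such as Bmp6 or Bmpr1b, which reached the filter in 6 libraries, entered the test through the groups in which it was high.

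RNA was measured in 18 cultures of C2C12 PAX7 NEG cells, a version of the mouse myoblast line C2C12. MUNC is a noncoding RNA from the region upstream of Myod1, the gene of a myogenic master regulator, and the study overexpressed its spliced and its genomic form. Control cells (labelled wild-type), a line overexpressing MUNC spliced and a line overexpressing MUNC genomic were each sampled in growth medium and in differentiation medium. Each of the 6 groups had 3 replicates, which the design calls biological. GM (growth medium) cultures were kept in 20% FBS and harvested near 80% confluency, and DM3 cultures had spent 3 days in medium with 2% HS (horse serum) in place of FBS. Below, differentiation names this change of culture from GM to DM3 and not a state shown for the cells. In control DM3 the muscle genes Myog, Myh3, Actc1 and Ckm averaged 0.344, 0.444, 0.0130 and 0.0444 FPM, while Tnnt3 averaged 6.14 and Des 77.5 FPM. How the overexpressing lines were made, and whether each came from 1 clone, is not given in the sources used here, so a difference between lines cannot be told apart from a difference between clones. The level of MUNC itself was not analysed here. The source name disagreed with the titles on myoblasts or myotubes in 9 samples, whereas the tissue label matched the titles in every sample, and groups follow titles and genotype labels. Whether replicates came from separate thaws or passages is not given, so p-values measure the spread between these cultures. In bulk RNA, fewer cells expressing a gene and less RNA per cell cannot be told apart.

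Ligands of this family are secreted dimers that bring together type I and type II serine/threonine kinase receptors. TGF-beta and activin receptors act mainly through Smad2 and Smad3 and BMP receptors through Smad1, Smad5 and Smad9, all of which share the partner Smad4, while Smad6 and Smad7 feed back as inhibitors. In skeletal muscle, TGF-beta and myostatin are known as brakes on myoblast differentiation, BMP signals are known to keep myogenic precursors dividing through Id proteins, and follistatin and gremlin bind ligands outside the cell.

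The promoters of 4 genes on which the results below turn are shown first. Bmp4, a BMP ligand, and Grem1, the BMP antagonist gremlin 1, had the largest differences from control in log2(FPM + 1). As folds of group means, Bmpr1b in MUNC genomic and Fst in MUNC spliced exceeded Grem1 in either line and Bmp4 in MUNC spliced. Tgfb2 and Chrd, the BMP antagonist chordin, were raised together with Bmp4 in the MUNC spliced line. Each sequence is the 250 bases before the annotated start, 5′ to 3′ on the gene's own strand, from RefSeq on GRCm38.p6. Capitals mark any match, searched on both strands, to 4 motifs. The E-box core was searched as CAGCTG. The GC-rich Smad motif was searched as GGCGCC. The palindromic Smad motif was searched as GTCTAGAC. The TATA box was searched as TATAAA. None of these motifs overlaps another in the 4 windows.
Bmp4: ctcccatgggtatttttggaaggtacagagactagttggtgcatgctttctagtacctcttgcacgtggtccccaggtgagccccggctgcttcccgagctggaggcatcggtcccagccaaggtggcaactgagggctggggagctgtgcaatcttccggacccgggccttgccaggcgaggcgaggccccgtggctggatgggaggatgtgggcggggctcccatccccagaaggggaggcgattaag
Grem1: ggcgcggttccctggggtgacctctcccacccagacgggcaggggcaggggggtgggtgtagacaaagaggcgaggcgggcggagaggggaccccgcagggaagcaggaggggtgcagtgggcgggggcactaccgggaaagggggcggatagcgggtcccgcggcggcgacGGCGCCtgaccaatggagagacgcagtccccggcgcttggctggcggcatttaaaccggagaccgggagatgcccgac
Tgfb2: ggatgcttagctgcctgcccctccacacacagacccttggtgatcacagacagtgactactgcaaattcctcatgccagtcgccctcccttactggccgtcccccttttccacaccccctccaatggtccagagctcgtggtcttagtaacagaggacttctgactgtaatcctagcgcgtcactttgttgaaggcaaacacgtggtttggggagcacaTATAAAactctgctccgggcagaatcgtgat
Chrd: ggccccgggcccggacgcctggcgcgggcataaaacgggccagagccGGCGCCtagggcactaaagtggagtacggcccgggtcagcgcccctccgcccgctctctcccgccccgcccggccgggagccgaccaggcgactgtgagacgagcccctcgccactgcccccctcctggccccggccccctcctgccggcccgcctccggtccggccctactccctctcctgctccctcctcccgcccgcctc
The windows are chr14:46390670-46390919 on the minus strand for Bmp4, chr2:113758649-113758898 on the minus strand for Grem1, chr1:186705990-186706239 on the minus strand for Tgfb2 and chr16:20732877-20733126 on the plus strand for Chrd. The Bmp4 window held none of the motifs. Grem1 held GGCGCC 78 bases before the start, Chrd held it 203 bases before the start, and Tgfb2 held TATAAA 31 bases before the start. RefSeq entries were found for 42 of the 60 genes, with 53 windows. Among these windows the GC-rich Smad motif occurred in 10 (18.9%, against 9.59% of all 32851 promoters) and the TATA box in 8 (15.1%, against 12.4%). The E-box core occurred in 2 (3.77%, against 13%) and the palindrome in 0 (against 0.167%). A match describes letters only, and an absent match says only that these letters are not in the window.

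Sequencing depth was 38416702 to 68788327 gene reads per library, and 3 reads correspond to 0.0429 to 0.0757 FPM. Replicates of 1 group correlated across genes at Pearson's r of 0.980 to 0.996, libraries of different groups at 0.868 to 0.975. Against the labelled cell type, Myf5 (24.3 to 81.5 FPM in GM) and Des were present, whereas Pax7 stayed at or below 0.147 FPM in every library and Myod1 and Myog were at or below 0.221 and 0.434 FPM in all control libraries. In MUNC spliced, Myod1 stood at 8.84 to 53.3 FPM, and in MUNC genomic at 1.66 to 22.5 FPM. The 13 myogenic markers found summed in GM to 243 to 336 FPM in control, 461 to 650 FPM in MUNC spliced and 473 to 834 FPM in MUNC genomic, and in DM3 to 456 to 634, 843 to 1821 and 1345 to 1523 FPM. Of the 13 markers, 7 stayed under 0.5 FPM in every control GM library and 6 in every control DM3 library. These counts were 2 and 1 in MUNC spliced and 5 and 1 in MUNC genomic. In control the mean of Vcam1 went from 109 FPM in GM to 199 FPM in DM3 and that of Myf5 from 71.8 to 103 FPM. Tnnt3 went from 0.370 to 6.14 FPM, and Acta1 fell from 20.7 to 4.35 FPM. The sums in MUNC genomic were mostly Des, which averaged 476 FPM in GM and 898 FPM in DM3, against 24.2 and 77.5 FPM in control. In GM the means of Myf5, Cdh15 and Vcam1 were lower in MUNC genomic than in control, and that of Myod1 was higher. Epithelial markers summed to 8.15 to 15.3 FPM in MUNC genomic libraries, mostly Krt8, and to at most 0.749 FPM elsewhere, with Epcam at or near 0 throughout. Endothelial markers summed to at most 7.64 FPM, with Kdr at or near 0, leukocyte markers to at most 6.24 FPM, osteoblast markers to 47.3 to 107 FPM and adipocyte markers to 2.83 to 12.9 FPM. Fibroblast markers, mainly Col1a1, summed to 2875 to 5910 FPM in MUNC spliced libraries, 1910 to 2897 FPM in control and 787 to 2178 FPM in MUNC genomic. The part of these markers in the differences below was not tested. Replicate 1 of MUNC spliced DM3 stood apart from the others, with Myog at 226 FPM where the lowest of the group was 41.0 FPM. Values without it are given below for part of the pathway results that use it. For genes of the target and accessory lists none is given.

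All changes below are differences in log2(FPM + 1), called at a limma adjusted p under 0.05 over all 13869 genes. This scale understates the change of genes with few reads. From GM to DM3, 16 of the 43 genes rose and 6 fell in control, which is 51.2% called where 58.2% of all genes were called (29.6% higher and 28.6% lower). In MUNC genomic 17 rose and 10 fell (62.8%, against 51.4% of all genes, 26.3% higher and 25.1% lower). In MUNC spliced 11 rose and 1 fell (27.9%, against 35.6%, 17.2% higher and 18.4% lower). Without MUNC spliced DM3 replicate 1 this count was 14 in place of 12. These 43 are the genes that passed the filter and not the whole pathway, and 8 of them (18.6%, against 9.42% of all genes) rose in all 3 lines, namely the ligands Tgfb3 and Gdf11, the receptors Acvr2a, Bmpr1a, Tgfbr2 and Tgfbr3, Smad3 and Ltbp3. Bambi fell in all 3 lines, which is 1 of 43 genes (2.33%, against 12.9%).

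Between lines, MUNC spliced exceeded control for 12 genes and was below it for 8 in GM (46.5%, against 35.5% of all genes, 18.2% higher and 17.3% lower), and for 18 and 8 in DM3 (60.5%, against 43.3%, 22.3% and 21%). Without MUNC spliced DM3 replicate 1 the DM3 count was 22 in place of 26. MUNC genomic exceeded control for 5 genes and was below it for 8 in GM (30.2%, against 26.8%, 12.2% and 14.5%), and for 12 and 10 in DM3 (51.2%, against 40.3%, 19.3% and 20.9%). With the replicate number as a block the GM count was 21, with 10 above and 11 below (48.8%, against 37.4% of all genes in the same fit). The GM splits depended on scaling. With every library set to the same sum, MUNC genomic gave 8 genes above control and 5 below, and MUNC spliced 15 above and 6 below. Over all genes the same scaling moved MUNC spliced from 2530 above and 2399 below to 3241 and 1658, and MUNC genomic from 1694 and 2017 to 2049 and 1598. Set against each other directly, the MUNC lines differed in 19 genes in GM (44.2%, against 35.8%, 19.9% and 16%) and in 31 genes in DM3 (72.1%, against 44.2%, 23.4% and 20.8%). Of these, MUNC spliced had the higher level for 10 in GM and for 20 in DM3. Without MUNC spliced DM3 replicate 1 the 31 became 26. The change with differentiation differed from that in control for 5 genes in MUNC spliced, all upward (11.6%, against 14.4%, 7.43% and 6.94%), and for 4 genes in MUNC genomic, 2 in each direction (9.3%, against 8.81%, 3.56% and 5.25%). The 5 became 2 without control DM3 replicate 3, and 3 without control GM replicate 1, control GM replicate 3 or control DM3 replicate 2. The 4 became 2 without MUNC genomic DM3 replicate 2. With the block both counts were 9 (20.9%, against 27.9% of all genes in MUNC spliced and 16.3% in MUNC genomic). Comparisons with control share the control libraries, so that counts of the MUNC lines are set side by side and not compared.

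With a change of at least 1 in log2 asked as well, the share of the 43 genes lay above that of all genes in each comparison between lines. Against control, MUNC spliced passed for 12 genes in GM (27.9%, against 7.98% of all genes) and 14 in DM3 (32.6%, against 11.2%), and MUNC genomic for 5 in GM (11.6%, against 6.58%) and 9 in DM3 (20.9%, against 11.1%). The MUNC lines differed by that much in 12 genes in GM (27.9%, against 9.11%) and 10 in DM3 (23.3%, against 13.2%). With differentiation, 4 genes passed in control (9.3%, against 18.7%), 4 in MUNC spliced (9.3%, against 9.03%) and 8 in MUNC genomic (18.6%, against 14.8%). For the difference from the change in control, 3 genes passed in MUNC spliced (against 5.5%) and 3 in MUNC genomic (against 4.33%). Genes that entered the test through 1 line, such as Bmp6 and Bmpr1b (6 libraries each), are among those counted. So are Fst, which reached the filter in 7 libraries, and Chrd and Inha, which reached it in 10 each. The part of the filter in these shares was not tested.

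**Figure D1:**
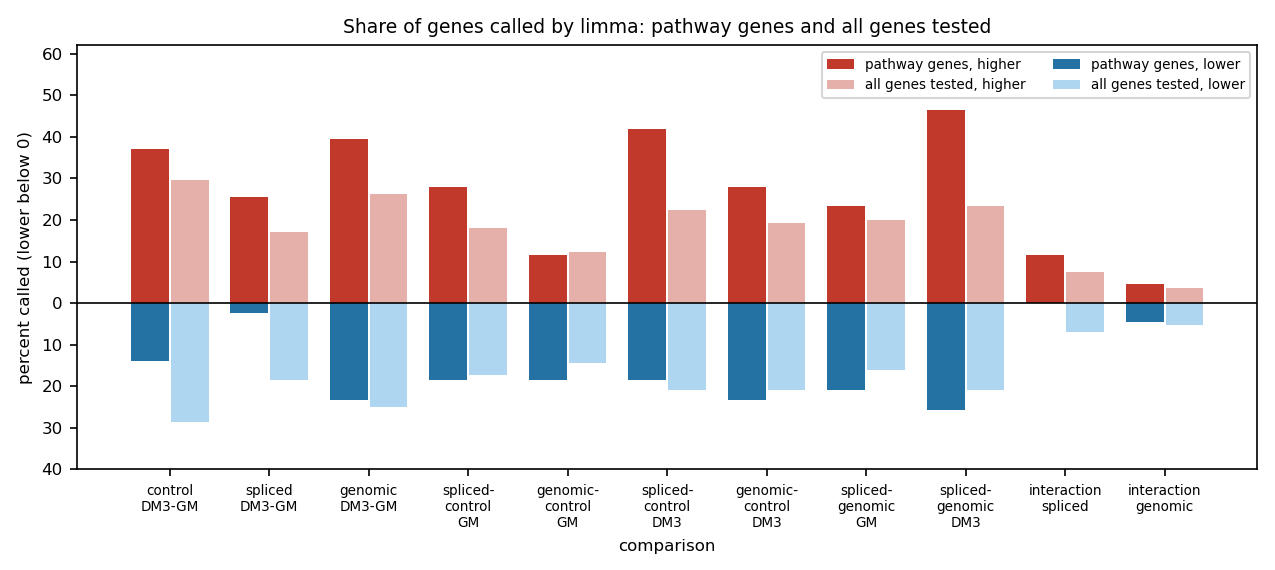
Percent of genes called higher (above 0) or lower (below 0) by limma in each of 11 comparisons, for the 43 tested pathway genes (dark bars) and all 13869 genes tested (pale bars). The largest gap between dark and pale bars above 0 is in MUNC spliced against MUNC genomic in DM3, where 20 of 43 genes were higher.

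**Figure D2:**
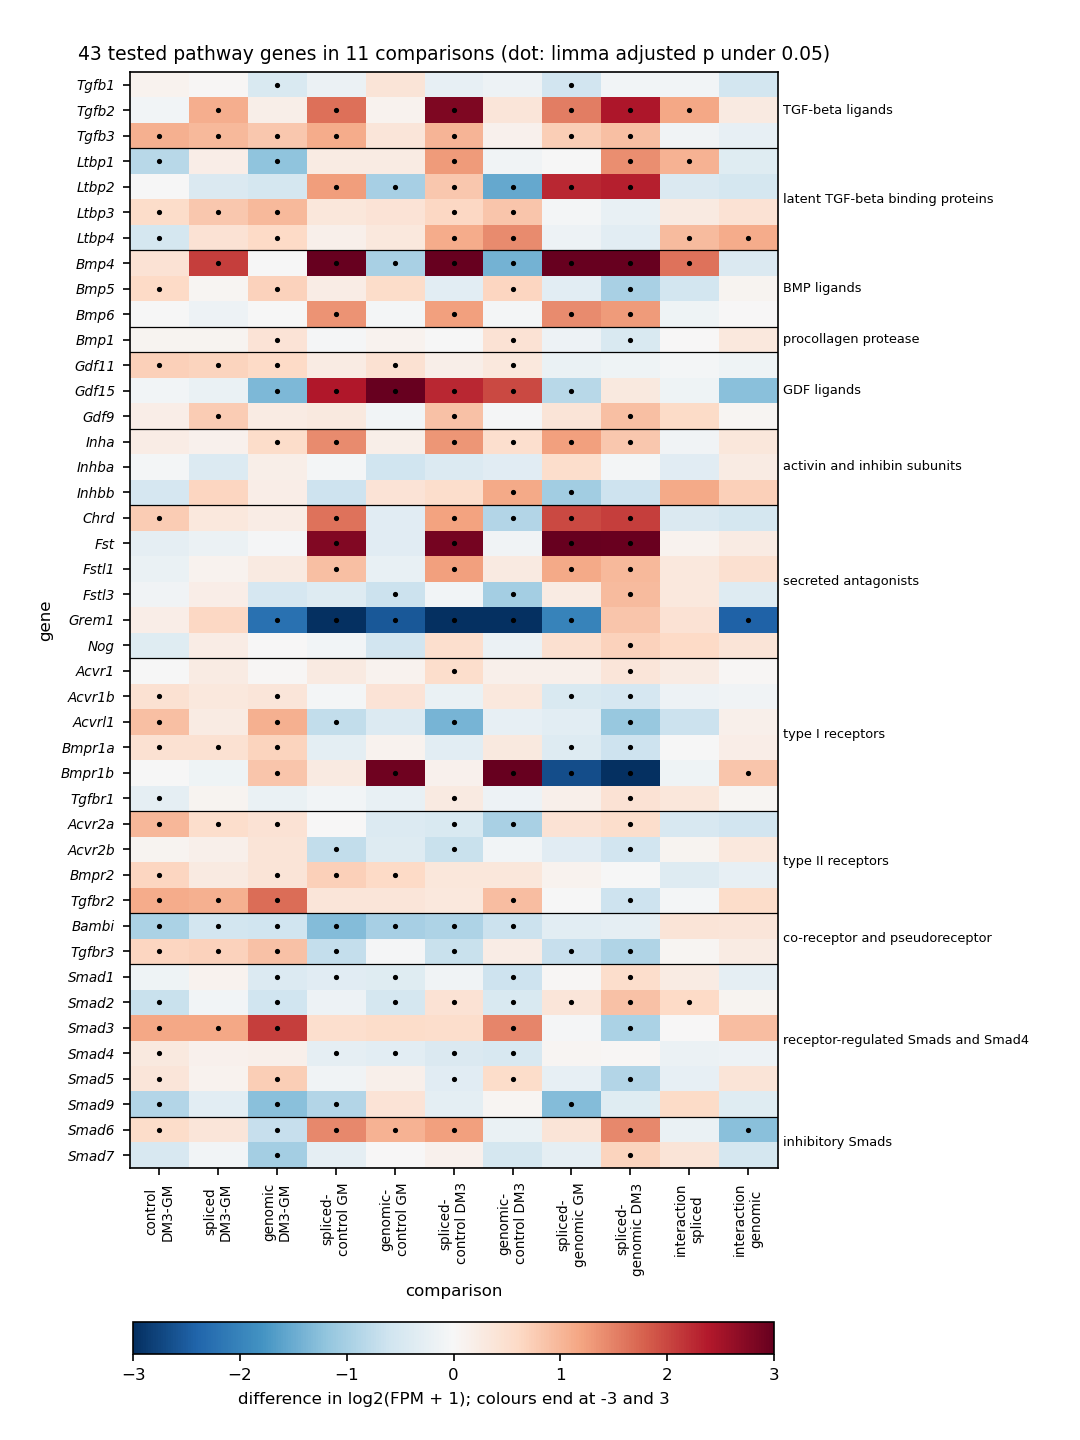
Differences in log2(FPM + 1) for the 43 tested genes (rows, by role) in 11 comparisons (columns), with red for higher and blue for lower in the first-named group and a dot where limma's adjusted p was under 0.05. Bmp4, Fst, Tgfb2, Gdf15, Bmpr1b and Grem1 hold the darkest cells, and Inhba has no dot in any column.

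The 3 TGF-beta isoforms share receptors. Tgfb2 separated the MUNC spliced line from the other lines. In GM it stood at 19.4, 18.5 and 12.4 FPM in control, 60.8, 64.7 and 38.7 FPM in MUNC spliced and 20.6, 19.9 and 13.5 FPM in MUNC genomic. In DM3 control held 14.4, 17.6 and 14.8 FPM, with 126, 92.9 and 127 FPM in MUNC spliced and 24.1, 20.7 and 16.7 FPM in MUNC genomic. All 6 MUNC spliced libraries lay above all 12 others. The mean was 3.27-fold the control mean in GM and 7.39-fold in DM3 (log2 differences 1.64 and 2.80, both SE 0.22, limma adjusted p = 3.19e-05 and 5.56e-08). Tgfb2 rose with differentiation in MUNC spliced (1.08, SE 0.22), not in control (-0.08), and the difference between these changes was 1.16 (SE 0.31, limma adjusted p = 0.0224). That call was lost without control GM replicate 1 (1.05) or control DM3 replicate 3 (1.12).

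Tgfb3 rose with differentiation in each line. Control went from 41.2, 39.6 and 31.5 FPM in GM to 65.5, 84.5 and 86.9 FPM in DM3, MUNC spliced from 92.9, 91.4 and 65.0 to 158, 157 and 167 FPM, and MUNC genomic from 58.9, 50.9 and 37.9 to 82.8, 89.5 and 84.3 FPM. In no line did the GM and DM3 libraries overlap, and MUNC spliced lay above control in both media. The rises were 1.06, 0.96 and 0.81 (SE 0.16 each), and MUNC spliced exceeded control by 1.12 in GM and 1.03 in DM3 (SE 0.16, limma adjusted p = 7.55e-05 and 0.000106). Part of the exons of Tgfb3 (12.4%) overlap genes on the opposite strand, and whether the counting used strand is not given in the sources used here. Tgfb1 ranged from 42.3 to 62.8 FPM over the group means and was called in MUNC genomic, where it fell with differentiation (-0.45), and between the MUNC lines in GM (-0.57 in MUNC spliced). Per kilobase of exon, Tgfb1 made up 40.5% ± 5.38 (SD, n = 3) of the 3 isoforms' RNA in control GM and 20.1% ± 3.61 (SD, n = 3) in MUNC spliced GM. In DM3 its share was 28.1% ± 0.396 (SD, n = 3) in control and 11.3% ± 2.27 (SD, n = 3) in MUNC spliced. Tgfb2 held 7.50% ± 0.917 (SD, n = 3) in control DM3 and 26.1% ± 3.35 (SD, n = 3) in MUNC spliced DM3, while Tgfb3 held 64.4% ± 0.670 (SD, n = 3) and 62.6% ± 2.14 (SD, n = 3).

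The 4 latent TGF-beta binding proteins tether the ligands to the matrix, except Ltbp2, which is not known to bind latent TGF-beta. Ltbp2 moved in opposite directions in the MUNC lines. In GM it stood at 69.5, 74.9 and 113 FPM in control, 168, 192 and 248 FPM in MUNC spliced and 35.5, 37.0 and 53.2 FPM in MUNC genomic, and in DM3 at 58.7, 107 and 92.0, at 95.3, 179 and 187, and at 21.8, 30.1 and 34.4 FPM. The groups did not overlap in GM, and in DM3 only the 95.3 FPM of MUNC spliced replicate 1 fell within the control range. The differences from control were 1.25 and -1.01 in GM and 0.81 and -1.53 in DM3 (SE 0.28, limma adjusted p = 0.00275, 0.0138, 0.0275 and 0.000387). Leaving out MUNC spliced DM3 replicate 1 gave 1.12 in place of 0.81. The 0.81 lost its call without control DM3 replicate 1 (0.57), MUNC spliced DM3 replicate 2 (0.67) or replicate 3 (0.64), and the -1.01 without control GM replicate 3 (-0.79), MUNC genomic GM replicate 1 (-0.90) or replicate 2 (-0.93).

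Ltbp1 fell with differentiation in control and in MUNC genomic. It stood at 194, 265 and 251 FPM in control GM and 106, 143 and 147 FPM in control DM3. MUNC genomic went from 279, 258 and 302 to 132, 108 and 123 FPM, and MUNC spliced had 260, 269 and 305 FPM in GM and 306, 263 and 395 FPM in DM3. The change was -0.84 in control and -1.204 in MUNC genomic, whereas MUNC spliced gave 0.19, which was not called, and the difference from the change in control was 1.03 (SE 0.23, limma adjusted p = 0.008). Ltbp4 in DM3 stood at 35.05, 28.6 and 35.3 FPM in control, at 62.5, 72.9 and 81.0 FPM in MUNC spliced and at 75.2, 106 and 92.0 FPM in MUNC genomic. Both MUNC lines lay above all control libraries (1.10 and 1.43, SE 0.20, limma adjusted p = 0.000303 and 2.43e-05), while in GM neither difference was called (0.16 and 0.31). With differentiation it fell in control (-0.52) and rose in MUNC genomic (0.60). The fall was lost under 3 alternatives and without any of 3 single libraries (-0.47, -0.44 and -0.42), and the rise with only the groups compared and without MUNC genomic GM replicate 1 (0.38) or MUNC genomic DM3 replicate 2 (0.49). Ltbp3, the most abundant of the 4 in DM3, rose in every line, by 0.54 in control, 0.81 in MUNC spliced and 0.97 in MUNC genomic. Its call in control was lost without any of 4 single libraries, with edgeR and with no filter, and that in MUNC spliced without MUNC spliced GM replicate 1 (0.65) or MUNC spliced DM3 replicate 3 (0.69). Per kilobase, Ltbp3 held 38.8% ± 4.47 (SD, n = 3) of the 4 genes' RNA in control GM and 57.0% ± 0.978 (SD, n = 3) in control DM3, and 45.4% ± 7.59 (SD, n = 3) and 69.5% ± 1.42 (SD, n = 3) in MUNC genomic.

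**Figure D3:**
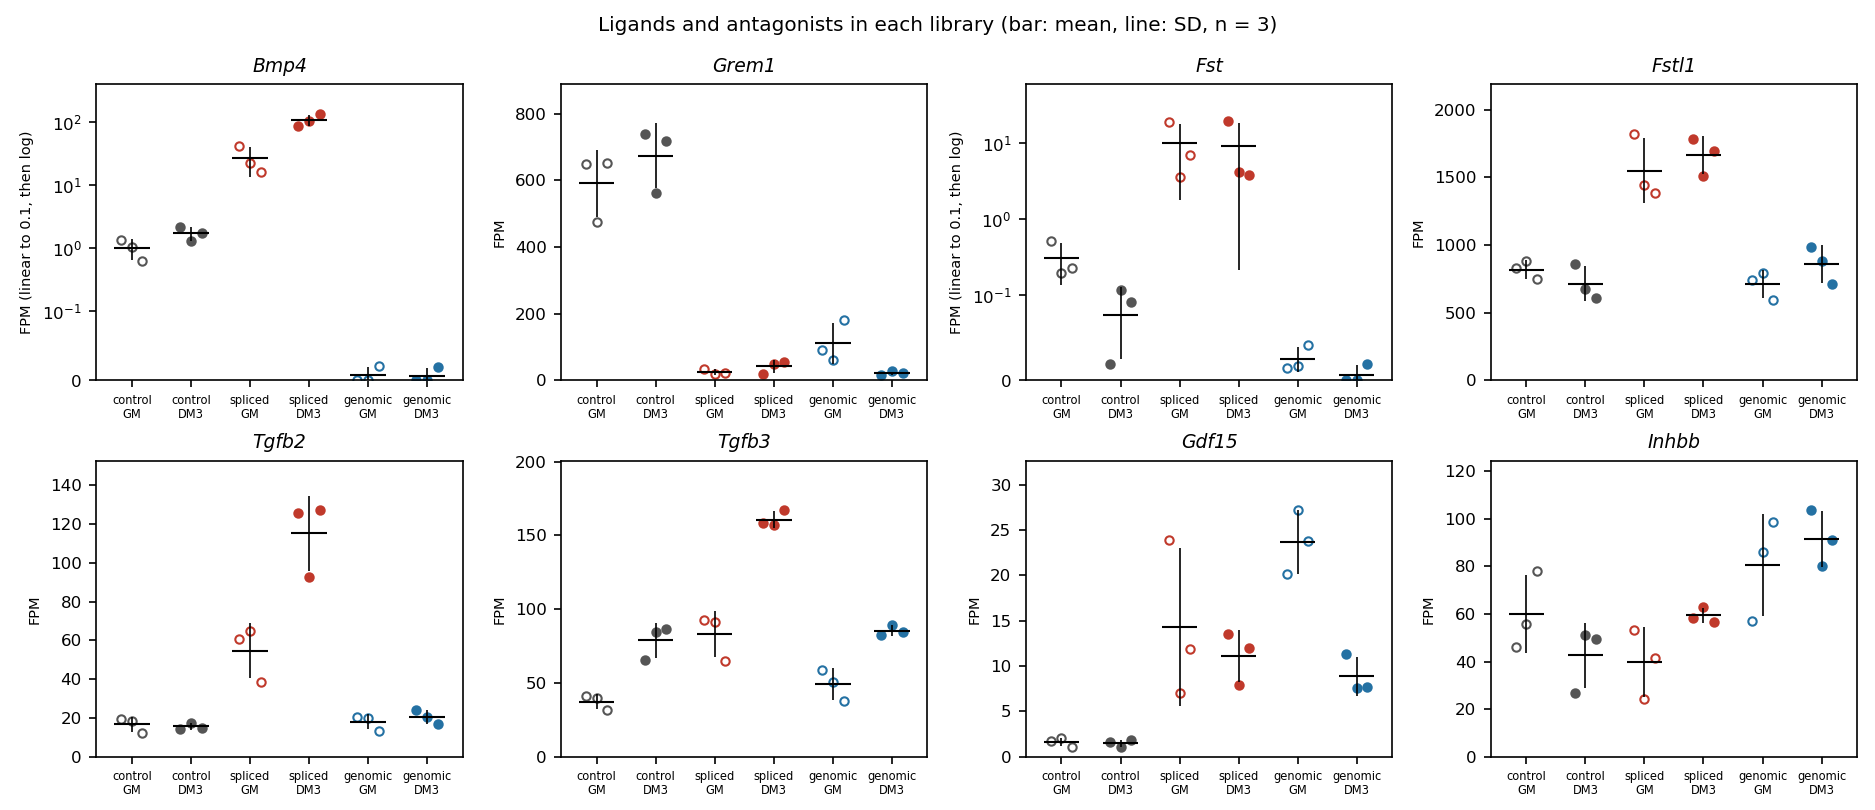
FPM in each library (circles, open for GM and filled for DM3; bar, mean; line, SD; n = 3) of the ligand genes Bmp4, Tgfb2, Tgfb3 and Gdf15, the activin subunit gene Inhbb and the antagonists Grem1, Fst and Fstl1, by group, with Bmp4 and Fst on an axis that is linear to 0.1 FPM and logarithmic above. Bmp4 stands at 16.1 FPM or more in all MUNC spliced libraries and at 0.021 FPM or less in all MUNC genomic libraries, and Grem1 at 474 FPM or more in control and 181 FPM or less in the other lines.

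Among the BMP ligands Bmp4, which signals through Smad1, Smad5 and Smad9, had the largest single difference of the 43 genes, 6.76 between the MUNC lines in DM3. Control libraries held 1.35, 1.03 and 0.615 FPM in GM and 2.11, 1.26 and 1.73 FPM in DM3. MUNC spliced held 42.1, 22.5 and 16.1 FPM in GM and 87.9, 106 and 134 FPM in DM3. MUNC genomic gave 0, 0 and 1 reads in GM and again 0, 0 and 1 reads in DM3, against 40 to 110 reads in the control libraries. The 3 lines did not overlap in either medium, with MUNC spliced highest and MUNC genomic lowest.

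The mean of Bmp4 in MUNC spliced was 27-fold the control mean in GM and 64.3-fold in DM3 (log2 differences 3.71 and 5.34, SE 0.25, limma adjusted p = 1.37e-08 and 1.63e-10). In MUNC genomic the differences from control were -0.97 in GM and -1.41 in DM3 (SE 0.25, limma adjusted p = 0.00907 and 0.000298). With a pseudocount of 0.1 these became -3.30 and -4.06, and no fold is given because MUNC genomic held so few reads. Bmp4 rose with differentiation in MUNC spliced, to 4.07-fold (2.07, SE 0.25, limma adjusted p = 2.31e-05), against 0.44 in control, which was not called. The difference of 1.63 between these changes was called, but not with a pseudocount of 0.1 (1.37), edgeR (1.31) or DESeq2 (1.27).

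Grem1, whose protein binds and blocks BMP2, BMP4 and BMP7, was lower in both MUNC lines. Control held 647, 474 and 651 FPM in GM and 739, 563 and 719 FPM in DM3. MUNC spliced held 33.8, 18.1 and 22.8 FPM in GM and 19.0, 49.8 and 55.2 FPM in DM3, and MUNC genomic 90.8, 61.2 and 181 FPM in GM and 16.2, 26.3 and 20.4 FPM in DM3. Every control library lay above every library of the MUNC lines. The control mean was 23.7-fold that of MUNC spliced in GM and 16.3-fold in DM3, and 5.33-fold and 32.1-fold that of MUNC genomic (log2 differences -4.54, -4.12, -2.53 and -4.96, SE 0.38, limma adjusted p = 1.49e-07, 3.42e-07, 0.000101 and 2.35e-08). Without MUNC spliced DM3 replicate 1 the -4.12 was -3.65. Grem1 fell with differentiation in MUNC genomic (-2.23, SE 0.38, limma adjusted p = 0.000151), where control gave 0.19, and the difference of -2.42 (SE 0.54) was called (limma adjusted p = 0.00904).

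Per kilobase of exon, which allows the genes to be set against each other, Grem1 averaged 142 ± 24.4 (SD, n = 3) and Bmp4 0.443 ± 0.164 (SD, n = 3) FPM per kb in control GM. In MUNC spliced DM3 Grem1 averaged 9.97 ± 4.71 (SD, n = 3) and Bmp4 48.6 ± 10.3 (SD, n = 3) FPM per kb. The ratio of Grem1 to Bmp4 RNA was 260, 250 and 574 in the control GM libraries and 190, 242 and 225 in control DM3. It was 0.435, 0.437 and 0.768 in MUNC spliced GM and 0.117, 0.254 and 0.224 in MUNC spliced DM3. Grem1 RNA exceeded Bmp4 RNA in all control libraries and was below it in all MUNC spliced libraries, which does not cover other antagonists or ligands. In MUNC genomic Grem1 averaged 26.7 ± 15.0 (SD, n = 3) FPM per kb in GM and 5.05 ± 1.22 (SD, n = 3) in DM3, beside Bmp4 at 0, 0 or 1 read. RNA levels are not protein levels.

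Bmp6, a ligand that is also known for iron homeostasis, was low everywhere and was called only in comparisons with MUNC spliced, which held 1.19 to 2.17 FPM in GM and 1.05 to 1.95 FPM in DM3 (66 to 102 and 60 to 108 reads). Control held 1 to 7 reads in any library, and MUNC genomic 0 or 1. Only MUNC spliced libraries reached the filter, so Bmp6 was tested through the line in which it was high. The differences from control were 1.35 and 1.22 (SE 0.13, limma adjusted p = 1.11e-06 and 2.1e-06). Bmp5 rose in DM3 in control (0.60) and MUNC genomic (0.69), at group means of at most 1.57 FPM, and 46.7% of its exon bases overlap a gene on the opposite strand. These calls were kept in 8 of 14 settings in control, with values of 0.53 to 3.43, and in 7 of 14 in MUNC genomic, with values of 0.42 to 1.56. Bmp1, a protease that trims procollagen and cleaves chordin and is no ligand despite its symbol, rose in MUNC genomic (0.40) and stood at 174 to 255 FPM over the groups.

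Fst, Chrd and Fstl1 were higher in MUNC spliced than in control in both media, and Fstl3 and Nog were not. Fst, or follistatin, which captures activins and myostatin, stood at 18.8, 3.54 and 6.96 FPM in MUNC spliced GM and at 19.2, 4.15 and 3.74 FPM in MUNC spliced DM3. Control held 0.512, 0.195 and 0.230 FPM in GM and 0.0192, 0.118 and 0.0921 FPM in DM3, and MUNC genomic 0 to 2 reads in any library. MUNC spliced lay above all other libraries, with replicate 1 highest in both media. Fst reached the filter in 7 libraries, among them all of MUNC spliced, through which it was tested. The differences from control were 2.78 and 2.88 (SE 0.47, limma adjusted p = 0.000259 and 0.000122), and without MUNC spliced DM3 replicate 1 the second was 2.20.

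Chrd stood at 2.52, 3.87 and 3.70 FPM in MUNC spliced GM and 5.70, 3.26 and 4.52 FPM in MUNC spliced DM3, against 0.290, 0.743 and 0.184 FPM and 0.960, 1.38 and 1.75 FPM in control. It was higher than in control in MUNC spliced in both media (1.64 and 1.21, SE 0.18) and lower in MUNC genomic in DM3 (-0.87, SE 0.18, limma adjusted p = 0.00123). Fstl1, a secreted glycoprotein related to follistatin and among the most abundant genes of the set, held 829, 882 and 746 FPM in control GM and 860, 674 and 608 FPM in control DM3. MUNC spliced held 1823, 1445 and 1383 FPM in GM and 1788, 1512 and 1696 FPM in DM3, and MUNC genomic 594 to 792 and 709 to 985 FPM. MUNC spliced lay above every other library, at 1.89-fold control in GM and 2.33-fold in DM3 (0.91 and 1.23, SE 0.17, limma adjusted p = 0.00051 and 1.97e-05).

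Fstl3, a follistatin-like activin binder, was lower than control in MUNC genomic in DM3, at 6.96, 7.08 and 7.59 FPM against 12.96, 17.1 and 17.3 FPM (-1.02, SE 0.22, limma adjusted p = 0.00123). In GM the difference was -0.64, and the call was lost under 4 of the alternatives and without any of 3 single libraries. Prss57 on the opposite strand overlaps 47.3% of the exon bases of Fstl3. Nog, or noggin, averaged at most 0.791 FPM in any group, was at 0 reads in MUNC genomic GM, and was called between the MUNC lines in DM3 (0.70), which was lost without MUNC spliced DM3 replicate 1 (0.28).

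Gdf15, a stress-induced cytokine of the family that signals through GFRAL, was higher in both MUNC lines in both media. It stood at 1.74, 2.04 and 1.12 FPM in control GM and 1.59, 1.05 and 1.79 FPM in control DM3. MUNC spliced held 23.9, 7.08 and 11.8 FPM in GM and 13.5, 7.86 and 12.01 FPM in DM3, and MUNC genomic 20.1, 27.2 and 23.8 FPM in GM and 11.3, 7.58 and 7.71 FPM in DM3. No control library reached any of these. The means were 8.74-fold and 14.5-fold the control mean in GM and 7.53-fold and 6.01-fold in DM3 (2.40, 3.24, 2.27 and 1.99, SE 0.31, limma adjusted p = 2.22e-05, 6.39e-07, 2.25e-05 and 8.06e-05). Gdf15 fell with differentiation in MUNC genomic (-1.34), not in MUNC spliced (-0.21, not called). Gdf11, a ligand close to myostatin in sequence, rose in DM3 in every line, by 0.72 in control, 0.66 in MUNC spliced and 0.59 in MUNC genomic (SE 0.12). Gdf9, best known from the oocyte, averaged at most 1.84 FPM, rose in MUNC spliced (0.77) and exceeded control there in DM3 (0.87).

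Activins are dimers of the Inhba and Inhbb products, and Inha supplies the other chain of the inhibins. Inhba was at 55.9 to 84.8 FPM over the group means and was called in none of the 11 comparisons. Inhbb was highest in MUNC genomic, at 57.1, 86.3 and 98.6 FPM in GM and 104, 80.3 and 91.0 FPM in DM3. Control held 46.0, 55.6 and 77.9 FPM in GM and 26.8, 51.1 and 49.7 FPM in DM3, and MUNC spliced 53.4, 24.1 and 41.6 FPM in GM and 58.4, 62.9 and 56.8 FPM in DM3. MUNC genomic and control overlapped in GM and did not in DM3, where the difference was 1.14 (SE 0.28, limma adjusted p = 0.0044). In GM, MUNC spliced was below MUNC genomic by 1.04 in log2 (SE 0.28, limma adjusted p = 0.00926), which was lost without MUNC spliced GM replicate 2 (-0.73). Inha was low and highest in MUNC spliced, at group means of 2.07 and 2.38 FPM against 0.138 and 0.334 FPM in control (1.42 and 1.31, SE 0.19).

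**Figure D4:**
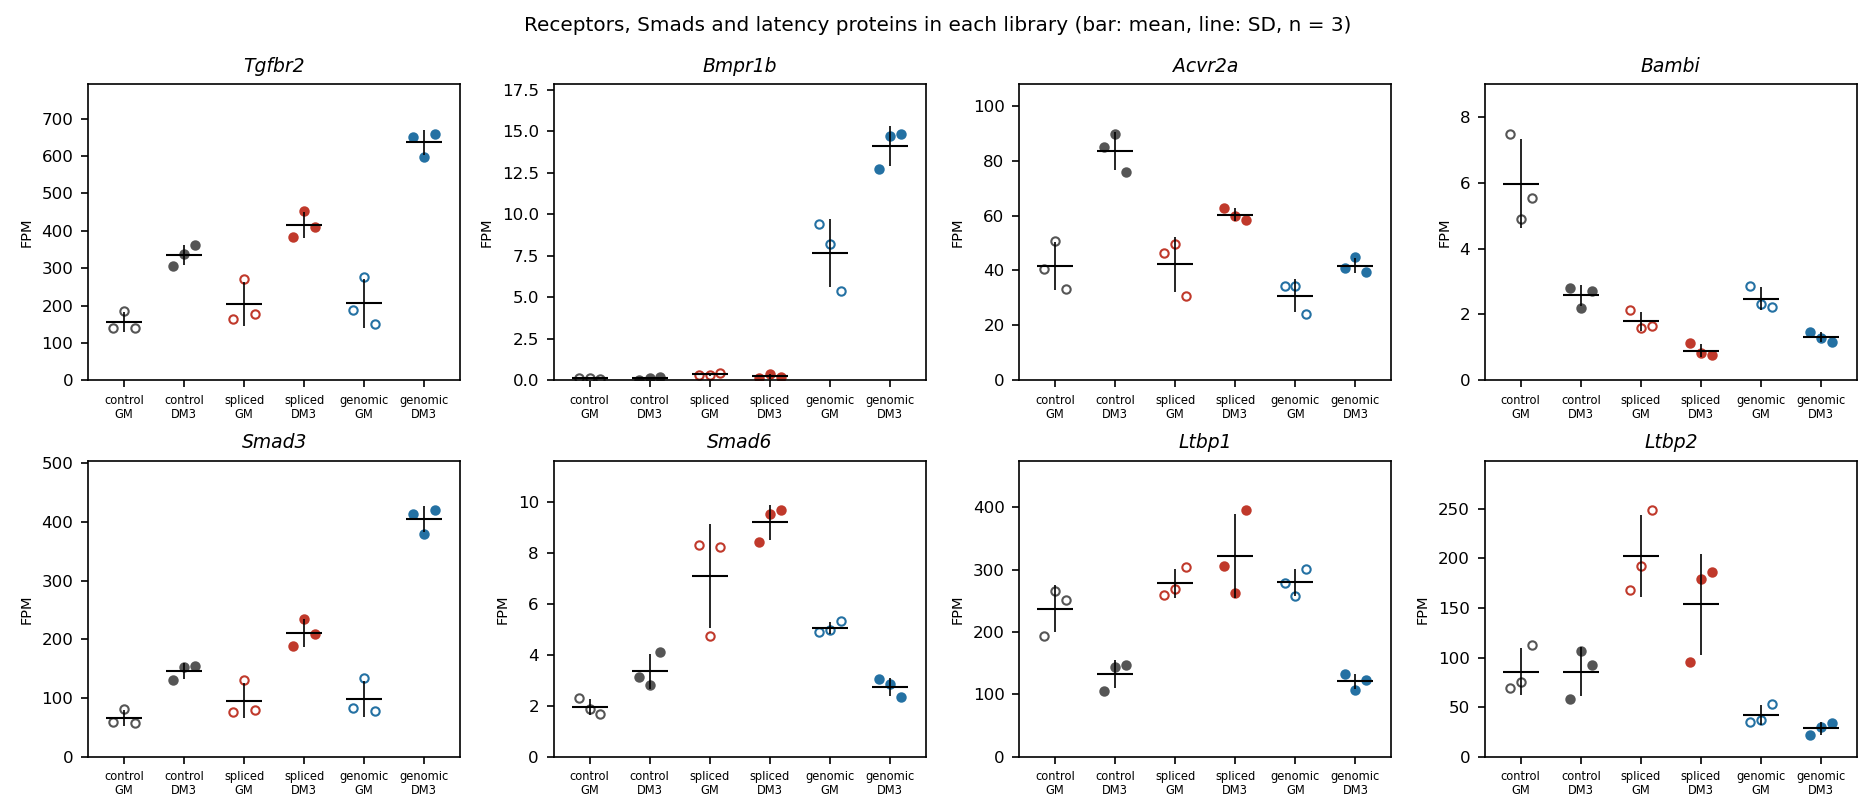
FPM in each library (circles, open for GM and filled for DM3; bar, mean; line, SD; n = 3) of 4 receptor genes, 2 Smads and 2 latency proteins by group. Tgfbr2 and Smad3 are highest in MUNC genomic DM3, at 598 FPM or more and 379 FPM or more, Bmpr1b is above 5 FPM only in MUNC genomic libraries, and Bambi is highest in control GM.

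Tgfbr2, the type II receptor for TGF-beta, rose in all 3 lines. Control went from 139, 186 and 140 FPM to 306, 338 and 361 FPM, MUNC spliced from 163, 270 and 178 to 385, 454 and 411 FPM, and MUNC genomic from 189, 278 and 151 to 652, 598 and 660 FPM. GM and DM3 libraries did not overlap in any line, and the MUNC genomic DM3 libraries lay above all others. The rises were 1.12, 1.06 and 1.67 (SE 0.20, limma adjusted p = 0.000188, 0.000801 and 6.85e-06), and MUNC genomic exceeded control by 0.93 in DM3 (SE 0.20, limma adjusted p = 0.00153). The rise in MUNC genomic was not shown to differ from that in control (0.55, not called). The type I partner Tgfbr1 stood at 41.1 to 55.8 FPM over the groups and the co-receptor Tgfbr3 rose in every line, by 0.63 to 0.89, where the calls in control and MUNC spliced were lost without some single libraries. In MUNC spliced Tgfbr3 was below control in GM (-0.72) and in DM3 (-0.67), and the second call was lost without control DM3 replicate 3 (-0.53) or MUNC spliced DM3 replicate 1 (-0.32).

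Bmpr1b, a BMP type I receptor, set MUNC genomic apart. It held 9.42, 8.19 and 5.38 FPM in MUNC genomic GM and 12.7, 14.7 and 14.8 FPM in MUNC genomic DM3. Control libraries held 0.0384 to 0.184 FPM (2 to 10 reads) and MUNC spliced libraries 0.114 to 0.433 FPM (6 to 24 reads). Only MUNC genomic libraries reached the filter, so Bmpr1b was tested through the line in which it was high. The MUNC genomic mean was 62-fold the control mean in GM, and the differences were 2.92 in GM and 3.75 in DM3 (SE 0.15, limma adjusted p = 2.02e-10 and 6.76e-12). With a pseudocount of 0.1 they were 5.09 and 6.07. Bmpr1b rose with differentiation in MUNC genomic (0.83, SE 0.15), and the difference from control (0.84) was called by limma, but not with a pseudocount of 0.1 (0.98), edgeR (0.92), DESeq2 (0.90) or without MUNC genomic DM3 replicate 2 (0.81). Bmpr1a, its widely expressed paralog, rose in every line, by 0.46 in control, 0.45 in MUNC spliced and 0.67 in MUNC genomic. Per kilobase, Bmpr1b was 5.97% ± 0.727 (SD, n = 3) of Bmpr1a in MUNC genomic DM3 and 0.0622% ± 0.0393 (SD, n = 3) in control DM3.

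Acvr2a, a type II receptor for activins and myostatin, rose in all 3 lines. Control went from 40.5, 50.8 and 33.4 FPM to 84.9, 89.8 and 76.0 FPM, MUNC spliced from 46.2, 49.8 and 30.8 to 62.8, 59.8 and 58.2 FPM, and MUNC genomic from 34.2, 34.4 and 24.1 to 41.0, 44.9 and 39.4 FPM. In DM3 the 3 lines did not overlap, with control highest and MUNC genomic lowest. The rises were 1.01, 0.53 and 0.44 (SE 0.18). The rises in the MUNC lines were not shown to differ from that in control (-0.48 and -0.57, SE 0.25, limma adjusted p = 0.212 and 0.194, and 0.0406 and 0.0279 with the replicate number as a block). MUNC genomic was below control in DM3 (-0.98, SE 0.18, limma adjusted p = 0.000324). MUNC spliced differed from control by -0.46 in DM3, a call lost under 3 of the alternatives and without any of the 6 libraries compared, and the rises in MUNC spliced and MUNC genomic lost their calls under several alternatives as well. Acvrl1, known from endothelium as ALK1, was low, at group means of at most 3.02 FPM, rose in control (0.90) and MUNC genomic (1.06), and was below control in MUNC spliced in both media (-0.73 and -1.38, SE 0.19). Endothelial markers summed to at most 0.761 FPM in control, 0.917 to 1.72 FPM in MUNC spliced, 7.14 to 7.64 FPM in MUNC genomic GM and 4.07 to 5.402 FPM in MUNC genomic DM3. In each MUNC genomic group 4 of the 5 markers stayed under 0.5 FPM in every library. The part of endothelial cells in the level of Acvrl1 was not tested. Among the other receptors, Acvr1 was higher than control in MUNC spliced DM3 (0.52), Bmpr2 was higher in both MUNC lines in GM (0.72 and 0.61) and Acvr2b was lower in MUNC spliced in both media (-0.74 and -0.66). Without MUNC spliced DM3 replicate 1 the -0.66 was -0.46.

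Bambi, a pseudoreceptor that lacks the kinase domain, stood at 7.49, 4.90 and 5.53 FPM in control GM and 2.80, 2.21 and 2.73 FPM in control DM3. MUNC spliced held 1.59 to 2.12 and 0.759 to 1.12 FPM, and MUNC genomic 2.23 to 2.88 and 1.15 to 1.46 FPM. GM exceeded DM3 in every line without overlap (-0.95, -0.56 and -0.59, SE 0.14), and both MUNC lines were below control in both media (-1.31 and -0.92 in MUNC spliced, -0.99 and -0.63 in MUNC genomic).

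Smad3, the DNA-binding TGF-beta and activin Smad, followed Tgfbr2 in its order over the groups. It went from 59.0, 81.5 and 57.4 to 131, 153 and 155 FPM in control, from 76.5, 131 and 80.0 to 189, 235 and 209 FPM in MUNC spliced and from 82.2, 134 and 78.3 to 414, 379 and 420 FPM in MUNC genomic. GM and DM3 did not overlap in any line. The rises were 1.15, 1.17 and 2.07 (SE 0.21, limma adjusted p = 0.000207, 0.000545 and 1.79e-06), and MUNC genomic exceeded control by 1.46 in DM3 (SE 0.21, limma adjusted p = 3.5e-05). The difference between the rises in MUNC genomic and control, 0.92, was not called (limma adjusted p = 0.0665, and 0.0107 with the replicate block). Smad2, the other Smad of that branch, fell in control (-0.68) and MUNC genomic (-0.60), and in DM3 it was higher than control in MUNC spliced (0.44) and lower in MUNC genomic (-0.45). The 0.44 lost its call without MUNC spliced DM3 replicate 1 (0.31). The common partner Smad4 was below control in both MUNC lines in both media by 0.27 to 0.47 in log2, where the GM differences lost their call with equal sums per library and without some single libraries. Among the BMP Smads, Smad5 rose in control (0.36) and MUNC genomic (0.74) and in DM3 lay below control in MUNC spliced (-0.35) and above it in MUNC genomic (0.54), Smad1 fell in MUNC genomic (-0.40), and Smad9, at most 3.06 FPM, fell in control (-0.89) and MUNC genomic (-1.25).

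Smad6, the inhibitory Smad that acts chiefly on BMP signals, was higher in MUNC spliced. It held 2.29, 1.88 and 1.66 FPM in control GM, 8.33, 4.75 and 8.24 FPM in MUNC spliced GM and 4.90, 4.96 and 5.34 FPM in MUNC genomic GM. In DM3 it held 3.13, 2.80 and 4.13, then 8.41, 9.53 and 9.67, then 3.05, 2.85 and 2.36 FPM. MUNC spliced and control did not overlap in either medium, and MUNC genomic lay above control in GM but overlapped it in DM3. The differences from control were 1.43 and 1.24 in MUNC spliced (SE 0.17, limma adjusted p = 1.08e-05 and 2.92e-05) and 1.05 and -0.21 in MUNC genomic, of which the second was not called. Smad6 fell with differentiation in MUNC genomic (-0.70) and rose in control (0.56), a difference of -1.26 (SE 0.24, limma adjusted p = 0.00378). Smad7, which inhibits both branches, fell in MUNC genomic from 35.01, 31.8 and 50.3 to 20.6, 17.8 and 16.6 FPM, without overlap (-1.03, SE 0.23, limma adjusted p = 0.00137), and gave -0.49 in control and -0.09 in MUNC spliced, neither called, although the control value passed with the replicate block (limma adjusted p = 0.0331).

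A list of 18 BMP target genes gave 11 tested members. In MUNC spliced GM, 3 were higher and 2 lower than control (45.5% called, against 35.5% of all genes), with a median of 0, against -0.02 over all genes. In MUNC spliced DM3, 4 were higher and 1 lower (45.5%, against 43.3%), with a median of 0.33, against 0.01. MUNC genomic had 2 higher and 3 lower in GM (45.5%, against 26.8%, median -0.05) and 4 higher and 4 lower in DM3 (72.7%, against 40.3%, median -0.07). With differentiation, 0 rose and 6 fell in control (54.5%, against 58.2%, median -0.68), 1 rose and 1 fell in MUNC spliced (18.2%, against 35.6%, median -0.20), and 1 rose and 7 fell in MUNC genomic (72.7%, against 51.4%, median -0.69). The falls alone were 54.5% in control, 9.09% in MUNC spliced and 63.6% in MUNC genomic, against 28.6%, 18.4% and 25.1% of all genes.

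Id2 and Id3, whose products block myogenic bHLH factors, accounted for the largest values of that list. Id2 held 16.8, 5.82 and 16.2 FPM in control GM and 1.36, 0.888 and 0.866 FPM in control DM3, whereas MUNC spliced held 61.5, 22.2 and 41.6 FPM in GM and 37.6, 35.7 and 22.1 FPM in DM3. MUNC spliced and control did not overlap, and Id2 fell with differentiation in control (-2.66, SE 0.50) and not in MUNC spliced (-0.31, not called), a difference of 2.35 (SE 0.71, limma adjusted p = 0.0377). MUNC genomic held 13.5, 5.77 and 38.9 FPM in GM and 3.997, 3.42 and 3.55 FPM in DM3. In DM3, MUNC spliced exceeded control by 3.98 for Id2 (SE 0.50) and 3.27 for Id3 (SE 0.43, limma adjusted p = 1.08e-05 and 1.55e-05). Id3 in MUNC spliced DM3 stood at 150, 163 and 115 FPM, against 21.3, 11.6 and 10.5 FPM in control and 79.0, 35.01 and 38.2 FPM in MUNC genomic, which lay between them. Atoh8 was higher than control in both MUNC lines, at 11.9 to 14.7 FPM in MUNC spliced DM3 and 11.3 to 15.4 FPM in MUNC genomic DM3 against 1.72 to 2.93 FPM in control (2.05 and 2.12, SE 0.30). Bmp4 was at 0 or 1 read in the same MUNC genomic libraries, and a link between Bmp4 and Atoh8 was not tested.

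Not every gene of the list followed Id2. Dlx3, a homeobox gene, was lower than control in both MUNC lines in DM3 (-2.49 and -2.07, SE 0.27), at 7.25, 3.45 and 3.09 FPM in MUNC spliced and 8.77, 4.79 and 5.37 FPM in MUNC genomic against 22.3, 28.2 and 38.4 FPM. Bmper, a secreted BMP modulator, was 16.4, 12.1 and 11.7 FPM in MUNC genomic DM3, 56.2, 61.8 and 60.3 FPM in control and 79.4, 78.8 and 83.6 FPM in MUNC spliced, with no overlap between lines. It was lower than control in MUNC genomic in GM and DM3 (-2.70 and -2.08, SE 0.16, limma adjusted p = 1.23e-09 and 2.16e-08). Id1, a target often used as a readout of BMP signals, ranged from 15.0 to 39.3 FPM over the MUNC spliced DM3 libraries, and its difference of 1.31 between MUNC spliced and control in DM3 was not called (limma adjusted p = 0.0502, and 0.0266 with the replicate block).

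**Figure D5:**
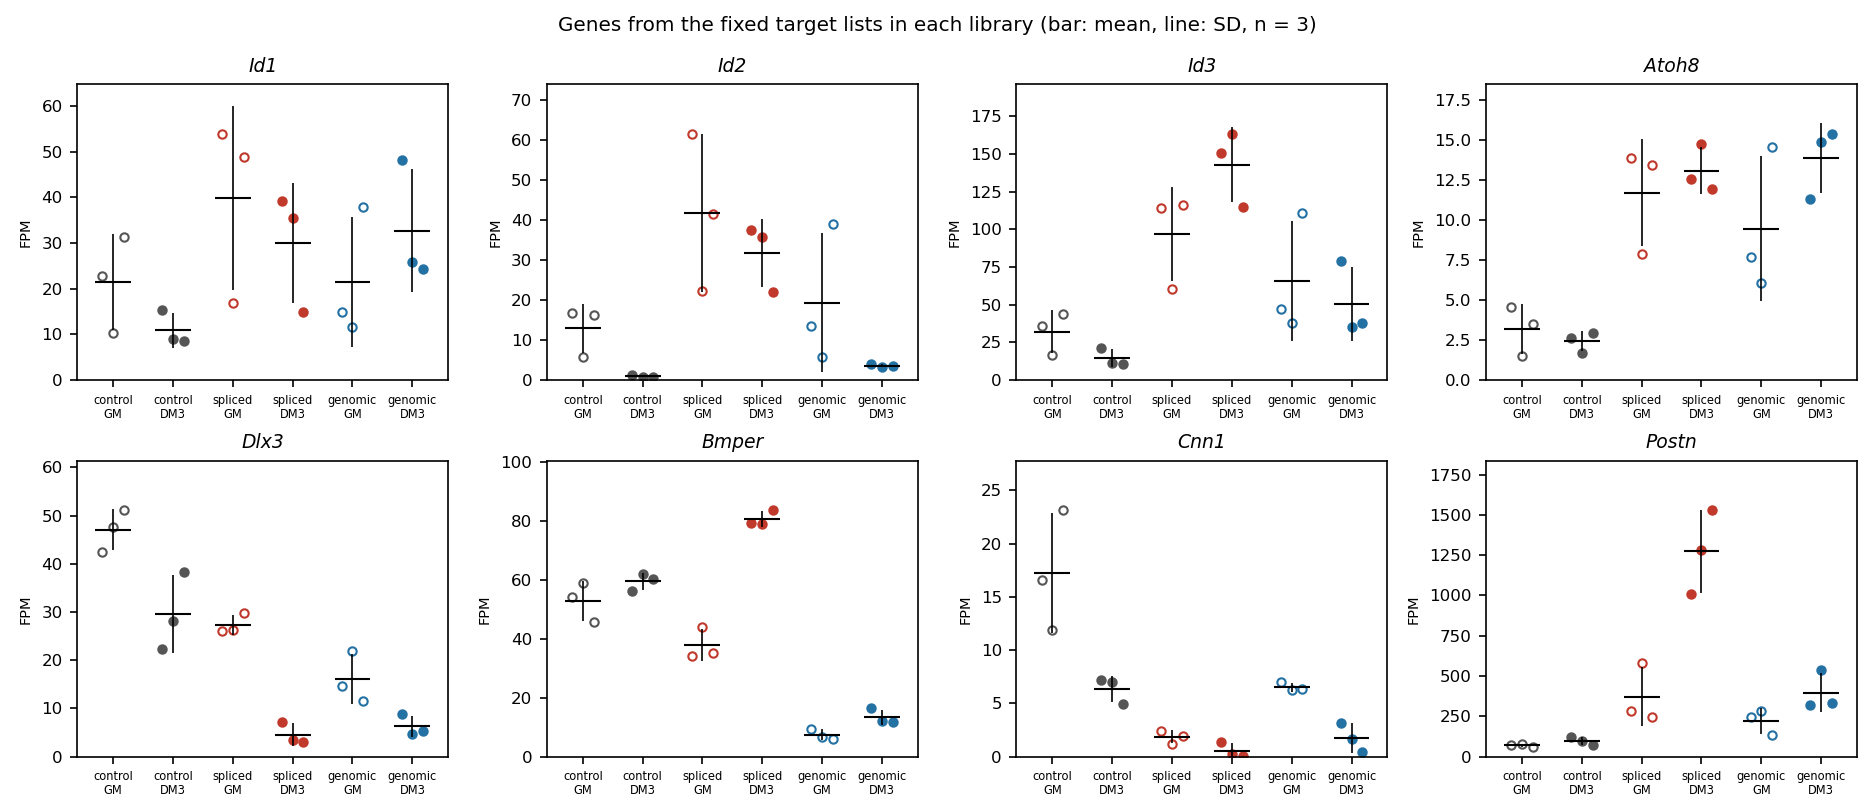
FPM in each library (circles, open for GM and filled for DM3; bar, mean; line, SD; n = 3) of 6 genes from the list of BMP targets and of Cnn1 and Postn from the list of TGF-beta and activin targets. Id2 is at most 1.36 FPM in control DM3 and at least 22.1 FPM in MUNC spliced DM3, and Postn is at least 1011 FPM in MUNC spliced DM3 and at most 121 FPM in control.

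Of 23 tested TGF-beta and activin target genes, 7 were higher and 1 lower than control in MUNC spliced GM (34.8% called, against 35.5% of all genes) and 6 higher and 3 lower in MUNC spliced DM3 (39.1%, against 43.3%), with medians of 0.33 and 0.41 against -0.02 and 0.01 over all genes. The 26.1% higher in DM3 stood beside 22.3% of all genes. In MUNC genomic 4 were higher and 3 lower in GM (30.4%, against 26.8%, median 0.13) and 6 higher and 7 lower in DM3 (56.5%, against 40.3%, median 0.17). Postn, a matrix protein, was higher than control in both MUNC lines in both media. In DM3 it stood at 1011, 1280 and 1529 FPM in MUNC spliced and 321, 537 and 335 FPM in MUNC genomic against 121, 100.1 and 73.4 FPM in control (3.69 and 2.00, SE 0.32, limma adjusted p = 1.95e-07 and 0.000117). Cnn1, a smooth muscle calponin, was lower than control in both lines in both media (-2.65 and -2.31 in MUNC spliced, -1.23 and -1.53 in MUNC genomic, SE 0.34). With differentiation, 10 of the 23 rose and 4 fell in control (60.9%, against 58.2%, median 0.41), 7 rose and 2 fell in MUNC spliced (39.1%, against 35.6%, median 0.18), and 10 rose and 4 fell in MUNC genomic (60.9%, against 51.4%, median 0.30), with Thbs1, an activator of latent TGF-beta, rising in each line (2.23, 1.27 and 1.22, SE 0.21).

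Other genes of these lists stood at the ends of single comparisons. Fn1, or fibronectin, rose in control (1.99) and MUNC genomic (2.16), and Tagln and Ctgf fell in control (-2.31 and -2.10). In DM3, MUNC spliced exceeded control for the collagen crosslinker Lox (1.25) and was below it for Snai1 (-0.76), while Tagln was above control in MUNC genomic (1.46). In GM the collagen gene Col3a1 was above control in MUNC spliced (0.98), and in MUNC genomic Spsb1 was above (0.75) and Snai2 below (-1.06). Between the MUNC lines, Snai2 (1.39) and Col1a1 (1.61) were higher and Tgif1 lower (-0.39) in MUNC spliced GM, and in DM3 Snai2 was higher (2.05) and Pmepa1 lower (-1.22). Of the BMP target list, Tnc, a matrix glycoprotein, fell in MUNC genomic (-1.91) and was below control there in DM3 (-2.13), and for Runx2 the change with differentiation was lower in MUNC genomic than in control (-0.80).

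Among 39 tested accessory genes, 11 were higher and 7 lower than control in MUNC spliced DM3 (46.2% called, against 43.3% of all genes) and 9 higher and 11 lower in MUNC genomic DM3 (51.3%, against 40.3%), with medians of 0.10 and -0.01 against 0.01 and -0.01 over all genes. Fmod, or fibromodulin, which binds TGF-beta, was higher than control in MUNC spliced in GM and DM3 (2.97 and 4.01, SE 0.46). Nbl1, a BMP antagonist, was higher in both lines in DM3 (1.64 in MUNC spliced and 2.01 in MUNC genomic, SE 0.21). Htra1, a protease that acts on TGF-beta family ligands, was lower in MUNC spliced in both media (-1.34 and -1.30, SE 0.20). Dcn, or decorin, rose with differentiation in each line (3.56, 3.74 and 4.98, SE 0.72), and it is also in the fibroblast marker list. Hfe2, or hemojuvelin, a BMP co-receptor, rose in MUNC spliced (2.501) and MUNC genomic (3.33), Itgb8, an integrin that activates latent TGF-beta, rose in control (2.497), and Strap and Fkbp1a fell in control (-1.45 and -0.74). In GM, Emilin1 was above control in both MUNC lines (1.44 and 1.84), Crim1 below it in MUNC spliced (-0.90) and the proteoglycan gene Bgn below it in MUNC genomic (-1.23). The change with differentiation differed from control for Crim1 in MUNC spliced and MUNC genomic (1.45 and 0.75) and for the protease gene Furin (-0.50 and -0.43). Of the genes named, Thbs1, Bmper, Pmepa1 and Tgif1 are each in 2 of the lists.

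The 17 genes below the filter were mostly ligands. Bmp2, Gdf1, Gdf3, Gdf6, Gdf10 and Mstn, the gene of myostatin, had 0 reads in all 18 libraries, which allows at most 0.0757 FPM in any library for counting error alone. Of these genes Gdf1 had no entry in GENCODE M21, and whether its 0 reads come from the annotation used for counting was not tested. A further 11 had from 1 read (Bmp7) to 253 reads (Bmp8a) over all libraries, with Bmp8a at up to 1.11 FPM in a single library and the type I receptor Acvr1c at up to 0.139 FPM. Among the BMP ligands 3 of 10 were tested, and among the GDF ligands 3 of 11, whereas each of the 4 type II receptors was.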

How the data were processed

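RNA-seq was run on 18 cultures in 6 groups of 3, and each library held 38416702 to 68788327 recovered gene reads. The submitters' processing notes name STAR, HTSeq, DESeq2 and mm10, with no version, role or order. The deposited signal of each gene is in FPM, gene reads scaled by the authors with 1 factor per library. The sample descriptions call the table fpkm, but its values came out as whole reads for 100% of values (within 0.05 read, largest distance 0.0349) with no length scaling. The authors' deposited tables of comparisons hold log2 fold changes and their standard errors under DESeq2 column names, per the file headers. They also hold an adjusted p-value per gene, per the file headers, and were used here as a side check.

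From the FPM values, log2(FPM + 1) was fitted with limma 3.58.1 in R 4.3.3 (trended prior, 1 fit of all 6 groups with 12 residual degrees of freedom), over 13869 genes with at least 0.5 FPM in at least 3 libraries. Benjamini-Hochberg adjustment ran over all of these in each of 11 comparisons. The limma step was tested on simulated data. Groups follow the titles and genotype labels. Genes were described by library if they averaged 5 FPM or more in a group and were called with a log2 change of at least 1, and lower ones were added where a role needed them, with their values already seen. From the target and accessory lists, genes were named from the 2 highest and 2 lowest called changes per comparison among those with 5 FPM or more, and Id1 was added for its role. A gene that this rule also names is not reported here. The pathway genes and all lists were chosen with earlier results of these data known. Alternatives were the pseudocount, the filter, scaling, a replicate block, fewer groups in the fit, edgeR 4.0.16 and DESeq2 1.42.0 on recovered reads, a call rule with a size limit, and leaving out each library. On recovered reads edgeR called 8034 genes in control differentiation, where limma called 8078. The labels do not say what a shared replicate number means. In 6 of the 9 comparisons of 2 groups, every same-numbered pair of libraries deviated together from the group means at a correlation over 0.1. This correlation was 0.494 to 0.726 for MUNC genomic against control in GM. Blocked values are given for only part of the calls that the block added. Those not described above include Tgfb1 in MUNC genomic against control in GM (0.40, limma adjusted p = 0.0662, and 0.017 with the block). They also include Smad3 in MUNC spliced against control in DM3 (0.52, limma adjusted p = 0.0547, and 0.0109 with the block). Exon lengths for 59 of the 60 genes came from GENCODE M21. Intervals and floors cover counting error only.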

Additional observations from a re-analysis of the deposited data

Results flagged for a closer look

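For 8 genes the change from GM to DM3 in a MUNC line differed from the change in control, by the interaction term of the limma fit, and 1 of them, Ltbp4, differed in both MUNC lines. Both sets of differences use the same control libraries. In MUNC spliced the difference was 1.63 for Bmp4 (SE 0.36, limma adjusted p = 0.00813), 1.03 for Ltbp1 (SE 0.23, limma adjusted p = 0.008) and 1.16 for Tgfb2 (SE 0.31, limma adjusted p = 0.0224). It was 0.95 for Ltbp4 (SE 0.28, limma adjusted p = 0.034) and 0.60 for Smad2 (SE 0.17, limma adjusted p = 0.0319). In MUNC genomic the difference was -2.42 for Grem1 (SE 0.54, limma adjusted p = 0.00904), -1.26 for Smad6 (SE 0.24, limma adjusted p = 0.00378), 1.12 for Ltbp4 (SE 0.28, limma adjusted p = 0.0188) and 0.84 for Bmpr1b (SE 0.21, limma adjusted p = 0.0203).

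The Ltbp4 call in MUNC spliced was lost with equal sums per library (0.88), with quantile normalization (0.84), with no filter and without any of 7 single libraries. In MUNC genomic it was lost without control DM3 replicate 2 (1.02) or MUNC genomic DM3 replicate 2 (1.01). The Smad2 call was lost when only the groups compared were fitted and without any of 6 single libraries. The Bmp4 call was kept in 18 of 21 settings and was lost with the smaller pseudocount, with edgeR and with DESeq2. The Bmpr1b call was kept in 17 of 21 settings. It was lost under the same alternatives as Bmp4 and without MUNC genomic DM3 replicate 2. The Tgfb2 call was lost without control GM replicate 1 or control DM3 replicate 3.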

How the results depend on the processing

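Of 201 called differences of single pathway genes, none changed sign under any alternative run. The calls kept were 196 with a pseudocount of 0.1, 183 with no filter, 188 of the 189 still tested at 2 FPM, 189 with equal sums per library, 190 with quantile normalization, 180 with only the groups compared, 192 with edgeR and 196 with DESeq2. Leaving out 1 library at a time kept 1094 of 1260. Asking for a log2 change of at least 1 kept 84, with counts for differentiation of 4 in control, 4 in MUNC spliced and 8 in MUNC genomic. Under that rule MUNC spliced against control gave 12 in GM and 14 in DM3, MUNC genomic against control 5 and 9, the MUNC lines against each other 12 and 10, and the difference from the change in control 3 in MUNC spliced. MUNC genomic against control in GM rose from 13 to 20 calls with DESeq2, where edgeR gave 18, and the cause was not tested. Depth limits Bmp4 in MUNC genomic and the genes at 0 reads.

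Leaving out single libraries gave counts for differentiation of 17 to 22 in control, 9 to 15 in MUNC spliced and 22 to 26 in MUNC genomic. MUNC spliced against control gave 19 to 20 in GM and 22 to 24 in DM3, MUNC genomic against control 9 to 16 and 19 to 22, and the MUNC lines against each other 15 to 20 and 26 to 30. The difference from the change in control gave 2 to 5 genes in MUNC spliced (lowest without control DM3 replicate 3) and 2 to 5 in MUNC genomic (lowest without MUNC genomic DM3 replicate 2).

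With the replicate number of the titles as a block, all 201 calls were kept, and counts rose to 21 for MUNC genomic against control in GM and to 9 for the difference from the change in control in each MUNC line. Calls over all genes rose as well, from 3711 to 5190, from 1993 to 3868 and from 1222 to 2265. Of 18 libraries, 17 correlated best with their own number. Over the 45 same-numbered pairs, 36 had a correlation over 0.1 (lowest -0.0569, median 0.291, highest 0.727, against a median of -0.124 for other numbers).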

Other observations

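The authors' deposited tables call, at an adjusted p under 0.05, 22 of the tested pathway genes in control differentiation, and 19 of limma's 22 calls were among them with the same direction. For MUNC spliced against control the authors' deposited tables call 17 in GM and 26 in DM3, and 17 of limma's 20 and 23 of its 26 calls were among them. For MUNC genomic against control the authors' deposited tables call 15 in GM and 27 in DM3, and 10 of limma's 13 and all of its 22 calls were among them. Both sets of calls come from the same libraries.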
